A study of Mus musculus with 31 samples.

Results

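The genes described here are 10 regulators of G protein signaling (RGS), *Rgs2*, *Rgs4*, *Rgs7*, *Rgs8*, *Rgs9*, *Rgs10*, *Rgs14*, *Rgs16*, *Rgs17* and *Rgs20*, chosen by name from the 52636 genes of an RNA-sequencing table of the caudate putamen (CPu). All 10 were above 0.1 TPM, a relative transcript abundance scaled to gene length and library, in all 31 mice and entered every test. The mice were female, between 8 and 11 weeks old, of a C57BL/6NTac-Brd1 line, and either wild type (WT) or heterozygous for a targeted deletion in *Brd1* (Brd1+/-). The deletion is carried by the line itself and is not limited to striatal neurons, and Brd1+/- and WT mice were litter-matched. Each genotype was administered vehicle or the tricyclic antidepressant imipramine (IMN) at 10 mg/kg, and mice of all groups, controls included, had gone through the same injections, tail suspension, open field and forced swim tests before the right CPu was punched. There were 8 vehicle administered WT mice, 7 vehicle administered Brd1+/- mice, 8 IMN administered WT mice and 8 IMN administered Brd1+/- mice, 1 library each.

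RGS proteins speed up the hydrolysis of GTP by G alpha subunits and so end the signal of G protein-coupled receptors sooner. In striatal projection neurons the long splice form of *Rgs9*, bound to the G beta 5 subunit (*Gnb5*) and held at the membrane by *Rgs7bp*, shortens dopamine D2 and opioid receptor signals. *Rgs2* is the member of the family best known for acting on Gq and is switched on quickly by neuronal activity, *Rgs4*, *Rgs8* and *Rgs16* act on Gi/o and Gq, *Rgs17* and *Rgs20* belong to the group that acts on Gz and Gi/o, and *Rgs10* and *Rgs14* act on Gi/o, *Rgs14* also carrying Ras binding domains.

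The targeted gene followed its labels. Under vehicle, *Brd1* was at 22.5 ± 2.97 TPM (SD, n = 8) in WT and at 13.4 ± 2.02 TPM (n = 7) in Brd1+/- mice, and under IMN at 19.9 ± 2.67 TPM (n = 8) and 12.8 ± 1.04 TPM (n = 8). The WT vehicle libraries stood apart from the others. A score of 10 striatal projection neuron markers, the mean of log2(TPM + 1), ran from 3.47 to 9.25 in them and from 8.24 to 9.19 in the other 23 mice, and 5 of the 8 lay below all of those. A score of 10 cortical excitatory neuron markers ran from 1.92 to 6.69 in WT vehicle mice, and WT vehicle mice 1 to 5 and 7 had a higher score than every vehicle administered Brd1+/- mouse (2.36 to 4.11). In the IMN groups it ran from 1.93 to 5.69 in WT and from 2.06 to 4.51 in Brd1+/- mice. All 10 markers of each list had a group mean above 0.1 TPM in each group. The summed TPM of the cortical list was 2333 to 5462 in WT vehicle, 1920 to 3357 in Brd1+/- vehicle, 1424 to 3504 in WT IMN and 797 to 3433 in Brd1+/- IMN mice, and that of the striatal list was 325 to 11018, 8838 to 10360, 5289 to 9707 and 7195 to 10193. Of the defining cortical marker *Slc17a7*, WT vehicle mice 6 and 8 held 2.57 and 4.30 TPM. The cortical sum of these mice, at no less than 2333 TPM, was therefore carried by other genes of the list. WT vehicle mouse 7 also held 26.8 TPM of 4 Y-linked genes against at most 0.188 TPM in any other mouse, although the mice are labelled female. For genes that passed the main test below, results that rest on the WT vehicle mice are therefore given with and without mice 1 to 5 and 7. Leaving these out keeps 2 WT vehicle mice. Values of the other genes use all mice unless stated. In tissue punches, fewer cells of a type and less RNA per cell cannot be told apart.

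In GRCm38, 6 of the 10 genes lie on chromosome 1, *Rgs20* (chr1:4909576-5070285, minus strand), *Rgs2* (chr1:143999338-144004161, minus), *Rgs8* (chr1:153653025-153700323, plus), *Rgs16* (chr1:153740349-153745468, plus), *Rgs4* (chr1:169741477-169747642, minus) and *Rgs7* (chr1:175059087-175492500, minus). *Rgs10* (chr7:128373621-128418758, minus), *Rgs17* (chr10:5825663-5922400, minus), *Rgs9* (chr11:109225355-109298129, minus) and *Rgs14* (chr13:55369732-55384687, plus) lie elsewhere. *Rgs8* and *Rgs16* are neighbours on the same strand with 40.0 kb between them. *Rgs20* overlaps 5 annotated genes, among them *Atp6v1h*, a proton pump subunit gene on the other strand at a median of 91.1 TPM, and the strand setting of the quantification is not given in the sources used here, so its level is uncertain. RefSeq (GRCm38.p6) promoters were matched for 8 of the 10 genes, with 3 entries for *Rgs8* and 1 for each of the others. The 250 bases upstream of the start are printed for *Rgs2* and *Rgs16*, the genes that passed the test in more than 1 comparison, and for the most upstream of the 3 *Rgs8* entries, beside its neighbour *Rgs16*. The other *Rgs8* windows (chr1:153665024-153665273 and chr1:153665423-153665672) are not printed. Capitals mark matches, on either strand, to the GC box GGGCGG, which on the opposite strand is spelled CCGCCC. The cyclic AMP response element TGACGTCA, the TATA box TATAAA and the E-box CACGTG were searched as well and had no match in these 3 windows.
Rgs2, chr1:144004150-144004399, minus strand: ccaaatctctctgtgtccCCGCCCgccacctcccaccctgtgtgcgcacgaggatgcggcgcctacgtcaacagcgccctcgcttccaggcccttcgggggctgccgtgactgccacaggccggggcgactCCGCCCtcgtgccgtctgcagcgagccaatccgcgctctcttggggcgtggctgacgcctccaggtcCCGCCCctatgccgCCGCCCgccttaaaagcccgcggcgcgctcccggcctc
Rgs16, chr1:153740103-153740352, plus strand: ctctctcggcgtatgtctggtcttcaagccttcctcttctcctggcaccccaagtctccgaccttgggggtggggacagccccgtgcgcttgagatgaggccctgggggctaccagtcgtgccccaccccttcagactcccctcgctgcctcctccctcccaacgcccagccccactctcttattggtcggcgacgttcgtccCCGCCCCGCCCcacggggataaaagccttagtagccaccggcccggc
Rgs8, chr1:153652787-153653036, plus strand: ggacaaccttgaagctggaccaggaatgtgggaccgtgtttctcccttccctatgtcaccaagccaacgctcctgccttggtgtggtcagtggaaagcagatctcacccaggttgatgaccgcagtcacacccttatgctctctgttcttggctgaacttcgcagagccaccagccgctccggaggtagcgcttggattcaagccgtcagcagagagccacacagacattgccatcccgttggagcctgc
The *Rgs2* window held 4 GC boxes, the *Rgs16* window 2 that overlap each other, and the printed *Rgs8* window none of the 4 motifs. The G and C content was 72.4%, 66.4% and 57.2%, against a median of 52.4% over 32851 promoters of the same length. Of those promoters, 32.7% held a GC box, 12.4% held the TATA box, 6.02% held the E-box and 1.55% the cyclic AMP response element. A match is a run of letters and not a measured binding site.

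TPM is given per gene length, so levels can be set between genes. Over all 31 mice the median was 542 TPM for *Rgs9*, 435 TPM for *Rgs4*, 113 TPM for *Rgs8*, 83.9 TPM for *Rgs2*, 80.1 TPM for *Rgs20*, 69.3 TPM for *Rgs10*, 46.1 TPM for *Rgs7*, 40.0 TPM for *Rgs14*, 23.4 TPM for *Rgs17* and 2.62 TPM for *Rgs16*. Some steps of this order held in every mouse and others did not. *Rgs4* was above *Rgs8*, and *Rgs17* above *Rgs16*, in 31 of 31 mice, and *Rgs14* was above *Rgs17* in 30. The neighbours *Rgs9* and *Rgs4*, *Rgs2* and *Rgs20*, and *Rgs7* and *Rgs14* were each in this order in 18 of 31 mice, within their spread between mice. *Rgs9* exceeded *Rgs4* in 8 of 8 IMN administered WT mice but in 2 of 8 vehicle administered WT mice and 2 of 7 vehicle administered Brd1+/- mice.

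**Figure D1:**
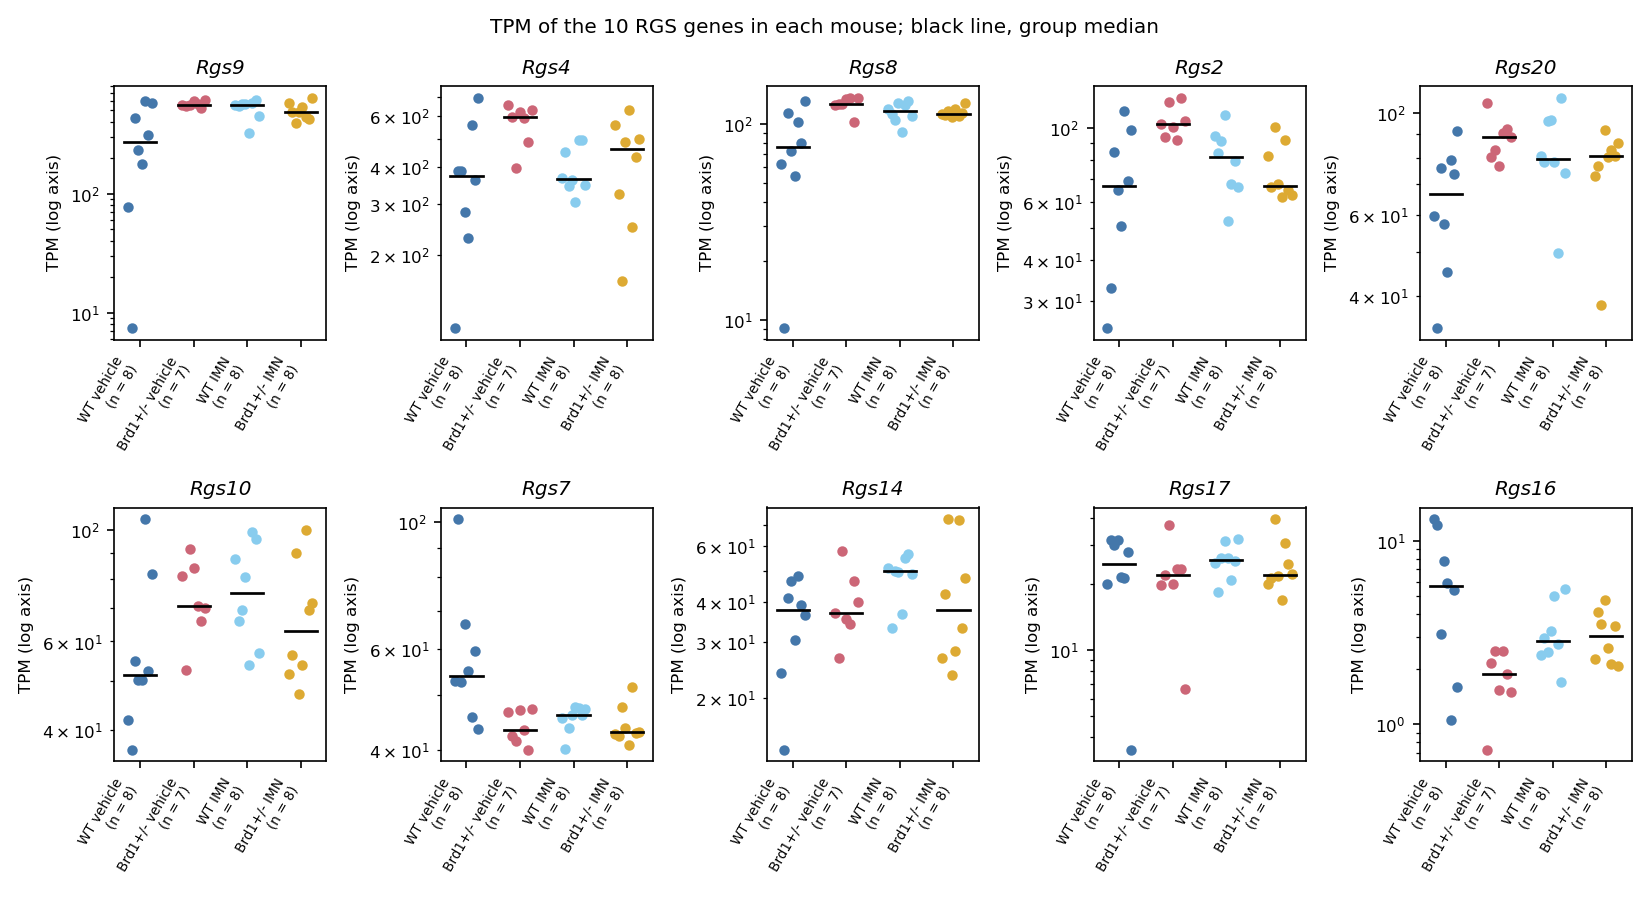
TPM (log axis) of each RGS gene in each of the 31 mice by group, with the group median as a black line; genes are ordered by their median over all mice. The WT vehicle mice spread widest for *Rgs9* (7.41 to 598 TPM) and *Rgs8* (9.10 to 131 TPM), and *Rgs2* in Brd1+/- mice was lower under IMN than under vehicle.

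The first comparison asked how the RGS genes differed with genotype in vehicle administered mice. *Rgs2* was higher in Brd1+/- mice, by 1.73-fold (95% confidence interval 1.17 to 2.55, n = 8 and 7), and *Rgs16* was lower, at 0.462-fold the WT value (0.266 to 0.802). Both were called, which means an unadjusted limma p under 0.01, and 0 of the 10 genes or of all genes passed a false discovery rate (FDR) of 5%. The 2 of 10 called stand against 13.6% of the 23200 genes tested, a share near theirs, of which 1.47% were higher and 12.1% lower. No RGS gene had groups without overlap, as 0.289% of all genes had. *Rgs20*, *Rgs7*, *Rgs4*, *Rgs8* and *Rgs9* had unadjusted p values from 0.0106 to 0.0339 and were not called. The median log2 difference was 0.43 over the 10 genes and -0.13 over all genes. These values rest on the WT vehicle mice. Without WT vehicle mice 1 to 5 and 7 no RGS gene was called, the smallest unadjusted p being 0.0826 for *Rgs10*, and the log2 differences were -0.0096 for *Rgs2* (limma adjusted p = 0.994) and 0.26 for *Rgs16* (adjusted p = 0.945). Leaving out 1 mouse at a time, *Rgs2* (0.61 to 0.92) and *Rgs16* (-1.33 to -0.94) each kept the call only without WT vehicle mouse 3, 6 or 8.

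Among the Gi/o and Gq regulators, *Rgs2* was at 24.8, 67.0 and 113 TPM (lowest, median and highest) in WT vehicle mice and at 92.4, 103 and 124 TPM in Brd1+/- vehicle mice. 6 of the 8 WT mice lay below every Brd1+/- mouse, and the other two, mice 6 and 8 at 113 and 98.8 TPM, lay within their range. The log2 difference was 0.79 ± 0.27 (SE), with limma p = 0.00916 and adjusted p = 0.0713, and an exact permutation p = 0.0112. *Rgs16* was at 1.06, 5.68 and 13.2 TPM in WT mice and at 0.727, 1.87 and 2.51 TPM in Brd1+/- mice, a log2 difference of -1.11 ± 0.38 (limma p = 0.00907, adjusted p = 0.0711, exact permutation p = 0.0194). Its highest values were WT vehicle mice 1 and 2 at 13.2 and 12.3 TPM, and mice 6 and 8, at 1.06 and 1.60 TPM, again lay within the Brd1+/- range. *Rgs4*, at 112, 374 and 695 TPM in WT and 398, 596 and 653 TPM in Brd1+/- mice, had a log2 difference of 0.75 ± 0.29 (limma adjusted p = 0.102, exact permutation p = 0.0260). *Rgs8*, at 9.10, 76.2 and 131 TPM in WT and 102, 126 and 136 TPM in Brd1+/- mice, had a log2 difference of 0.96 ± 0.40 (limma adjusted p = 0.123, exact permutation p = 0.00901). For both, WT vehicle mice 6 and 8 were at or near the Brd1+/- levels, with *Rgs4* at 561 and 695 TPM and *Rgs8* at 102 and 131 TPM.

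Of the regulators that pair with G beta 5, *Rgs9* spread widest, at 7.41, 273 and 598 TPM in WT vehicle mice and 529, 560 and 615 TPM in Brd1+/- vehicle mice. The lowest value was WT vehicle mouse 2, which also had the lowest striatal score, and mice 6 and 8 held 598 and 582 TPM. The log2 difference was 1.63 ± 0.70 (limma adjusted p = 0.131, exact permutation p = 0.0169), and with the striatal score as a covariate it was -0.12 (adjusted p = 0.690). *Rgs7* went the other way, at 43.5, 53.8 and 101 TPM in WT and 40.1, 43.3 and 47.2 TPM in Brd1+/- mice, a log2 difference of -0.38 ± 0.14 (limma adjusted p = 0.0847, exact permutation p = 0.00606). By the exact permutation test *Rgs7* and *Rgs8* were the 2 genes under 0.01, where 11% of all genes were, and *Rgs2* and *Rgs16* were above it.

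*Rgs20*, which acts on Gz, was at 34.1, 66.7 and 91.2 TPM in WT and 76.5, 88.5 and 105 TPM in Brd1+/- vehicle mice (log2 difference 0.49 ± 0.17, limma adjusted p = 0.0755, exact permutation p = 0.0123). *Rgs17*, of the same group, was at 3.51, 24.8 and 31.8 TPM and at 6.63, 22.0 and 37.3 TPM, and 1 WT mouse lay outside the Brd1+/- range. *Rgs10*, an inhibitor of Gi/o signals also known in microglia, was at 36.6, 51.4 and 105 TPM and at 52.7, 70.4 and 91.7 TPM (exact permutation p = 0.0982). *Rgs14* was at 13.7, 37.9 and 48.5 TPM and at 26.7, 37.0 and 58.1 TPM (exact permutation p = 0.407).

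With IMN in both genotypes, the comparison of Brd1+/- with WT mice called none of the 10 RGS genes, where 0.703% of 23339 genes were called (0.189% higher, 0.514% lower), 0.00428% passed an FDR of 5% and 0.0129% had groups without overlap. 0 RGS genes had an unadjusted limma p under 0.05, the smallest being 0.277 for *Rgs10*, and 0 were under 0.05 by an exact permutation test (3.92% and 4.03% of all genes). The log2 differences ran from -0.23 for *Rgs14* to 0.0021 for *Rgs8*. The 95% intervals of the Brd1+/- to WT ratio were 0.760 to 1.15 for *Rgs2*, 0.906 to 1.11 for *Rgs8*, 0.796 to 1.15 for *Rgs9* and 0.753 to 1.28 for *Rgs16*.

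The comparison of IMN with vehicle within Brd1+/- mice does not use the WT vehicle mice. It shares the Brd1+/- vehicle mice with the first comparison, so the directions of these 2 comparisons are not independent. *Rgs2* fell to 0.704-fold its vehicle level (95% confidence interval 0.599 to 0.827, n = 7 and 8) and *Rgs16* rose by 1.45-fold (1.13 to 1.87), each with an unadjusted p under 0.01. That is 2 of 10, against 1.83% of the 23020 genes tested (0.964% lower and 0.869% higher), and 0 genes were under an FDR of 5%. Groups without overlap were seen for 0.0999% of genes and for 0 of the 10. The striatal score was 8.95 to 9.19 under vehicle and 8.67 to 9.14 under IMN in these mice, and the cortical score 2.36 to 4.11 and 2.06 to 4.51. The median log2 difference was -0.14 over the RGS genes and 0.013 over all genes.

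*Rgs2*, the activity-induced Gq regulator, was at 92.4, 103 and 124 TPM in vehicle administered and at 62.0, 67.1 and 101 TPM in IMN administered Brd1+/- mice. 7 of the 8 IMN mice lay below every vehicle mouse, 5 of the 7 vehicle mice lay above every IMN mouse, and mouse 3 of the IMN group, at 101 TPM, lay within the vehicle range. The log2 difference was -0.51 ± 0.11 (limma p = 0.000284, adjusted p = 0.266), the 24th smallest p of the comparison, and the exact permutation p was 0.00218. With each mouse left out in turn its unadjusted p ran from 2.71e-05 to 0.000876, and the log2 difference was -0.52 with the cortical score and -0.63 with the striatal score as a covariate (limma adjusted p = 0.177 and 0.360). A spread estimated from all 4 groups together, the wide WT vehicle group included, gave the same difference with an adjusted p = 0.971 and an unadjusted p of 0.0294, and the call was lost. *Rgs16* was at 0.727, 1.87 and 2.51 TPM under vehicle and 2.08, 3.02 and 4.77 TPM under IMN, and 5 of the 8 IMN mice lay above every vehicle mouse. Its log2 difference of 0.54 ± 0.17 (limma p = 0.00636, adjusted p = 0.517, exact permutation p = 0.00995) was 0.43 to 0.60 with 1 mouse left out. It lost its call without vehicle mouse 1, 4 or 7 or IMN mouse 2, 3, 4 or 7, and also with the striatal score as a covariate (0.36, limma adjusted p = 0.804). The same happened with sample weights and with all 4 groups in one fit.

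Of the other 8 genes, *Rgs4* was at 163, 461 and 628 TPM in IMN administered Brd1+/- mice against 398, 596 and 653 TPM under vehicle (log2 difference -0.54 ± 0.24, limma adjusted p = 0.680, exact permutation p = 0.0594). The groups overlapped, with 3 of 8 IMN mice below every vehicle mouse. *Rgs9*, at 391, 489 and 642 TPM under IMN, and *Rgs8*, at 108, 112 and 128 TPM, differed by -0.20 ± 0.09 and -0.14 ± 0.06 on the log2 scale (exact permutation p = 0.0533 and 0.0385). Of the IMN mice, 5 lay below every vehicle mouse for *Rgs9* and 0 for *Rgs8*. *Rgs7* was at 40.9, 43.0 and 51.5 TPM (95% interval of the ratio to vehicle 0.923 to 1.10). *Rgs20*, *Rgs17*, *Rgs10* and *Rgs14*, at medians of 80.5, 22.0, 62.9 and 37.8 TPM under IMN, had unadjusted limma p values from 0.123 to 0.863. By the exact permutation test 2 of the 10 genes, *Rgs2* and *Rgs16*, were under 0.01 and 3, with *Rgs8*, under 0.05, against 1.85% and 7.19% of all genes.

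**Figure D2:**
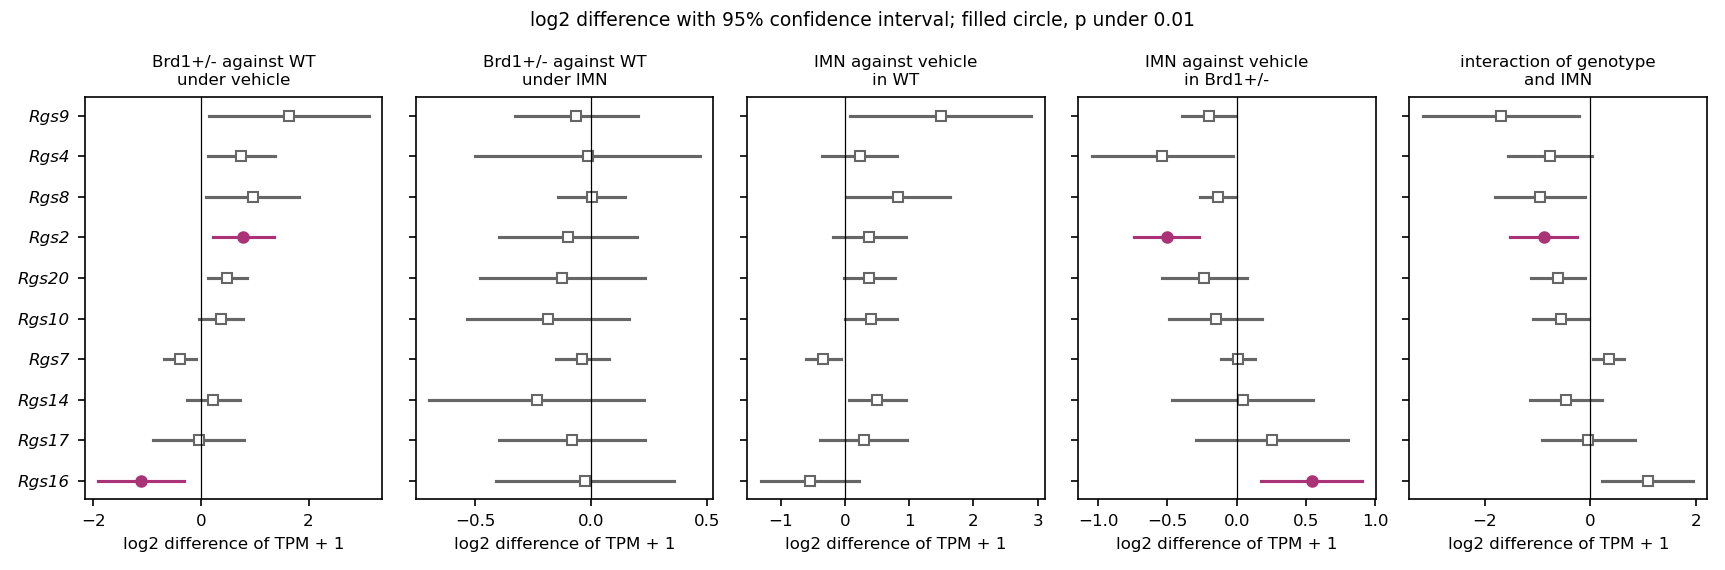
log2 difference of TPM + 1 with its 95% confidence interval for the 10 RGS genes (rows) in the 4 comparisons of groups and in the interaction (panels, each with its own x axis); filled circles mark p under 0.01 in limma. *Rgs2* and *Rgs16* are called in opposite directions in 2 panels. These panels share the Brd1+/- vehicle mice, so their directions are not independent. Every interval in the genotype comparison under IMN includes 0.

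Within WT mice the comparison of IMN with vehicle called none of the 10 genes in limma, against 6.95% of 23579 genes (1.35% higher and 5.6% lower, with 0.00424% under an FDR of 5%), and 4 had an unadjusted p under 0.05, as 23.1% of all genes had. Groups without overlap were seen for 0.144% of genes and 0 of the 10. This comparison shares the WT vehicle mice with the first one, so the directions of the pair are not independent. *Rgs7* was at 40.2, 46.1 and 47.5 TPM in IMN administered WT mice (log2 difference -0.34 ± 0.13, limma adjusted p = 0.159), and was the 1 gene that an exact permutation test put under 0.01 (p = 0.00559), as it did 6.01% of all genes. *Rgs14* was at 33.2, 50.03 and 56.7 TPM (0.51 ± 0.21, exact permutation p = 0.0291), and 6 of the 8 IMN mice lay above every vehicle mouse. *Rgs9* was at 326, 557 and 615 TPM (1.49 ± 0.67, exact permutation p = 0.0202) and *Rgs8* at 91.0, 116 and 131 TPM (0.82 ± 0.38, exact permutation p = 0.0154). *Rgs2*, at 52.5, 81.7 and 110 TPM, and *Rgs16*, at 1.71, 2.85 and 5.45 TPM, had log2 differences of 0.38 ± 0.27 and -0.55 ± 0.36 (exact permutation p = 0.221 and 0.184). With WT vehicle mice 6 and 8 alone as the vehicle group, the difference was -0.42 for *Rgs2* (limma adjusted p = 0.660), 0.82 for *Rgs16* (adjusted p = 0.549), -0.68 for *Rgs4* (adjusted p = 0.489), 1.40 for *Rgs17* (adjusted p = 0.517) and -0.20 for *Rgs9* (adjusted p = 0.805). *Rgs4* and *Rgs17* were then the 2 genes called, beside 1.86% of all genes. WT vehicle mouse 8 held the lowest *Rgs17* value of all 31 mice, at 3.51 TPM.

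The interaction, the effect of IMN in Brd1+/- mice minus that in WT mice, was called for *Rgs2* alone, 1 of 10 against 3.74% of 25394 genes (2.97% higher and 0.78% lower), and for 0 genes at an FDR of 5%. Its log2 value was -0.89 ± 0.31 (95% confidence interval -1.52 to -0.26, limma adjusted p = 0.261) with an unadjusted p of 0.00724. It was -0.52 and -0.34 with the cortical or the striatal score as a covariate (limma unadjusted p of 0.0441 and 0.146), and -0.089 (unadjusted p of 0.711) without WT vehicle mice 1 to 5 and 7. Leaving out 1 mouse, it ran from -1.01 to -0.71 and lost its call in 14 of 31 fits, of which WT vehicle mouse 1 moved it most. *Rgs16* (1.09 ± 0.42), *Rgs20* (-0.62 ± 0.25), *Rgs7* (0.35 ± 0.15), *Rgs9* (-1.69 ± 0.72), *Rgs8* (-0.96 ± 0.42) and *Rgs10* (-0.55 ± 0.26) did not pass, with unadjusted limma p values from 0.0156 to 0.0430.

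**Figure D3:**
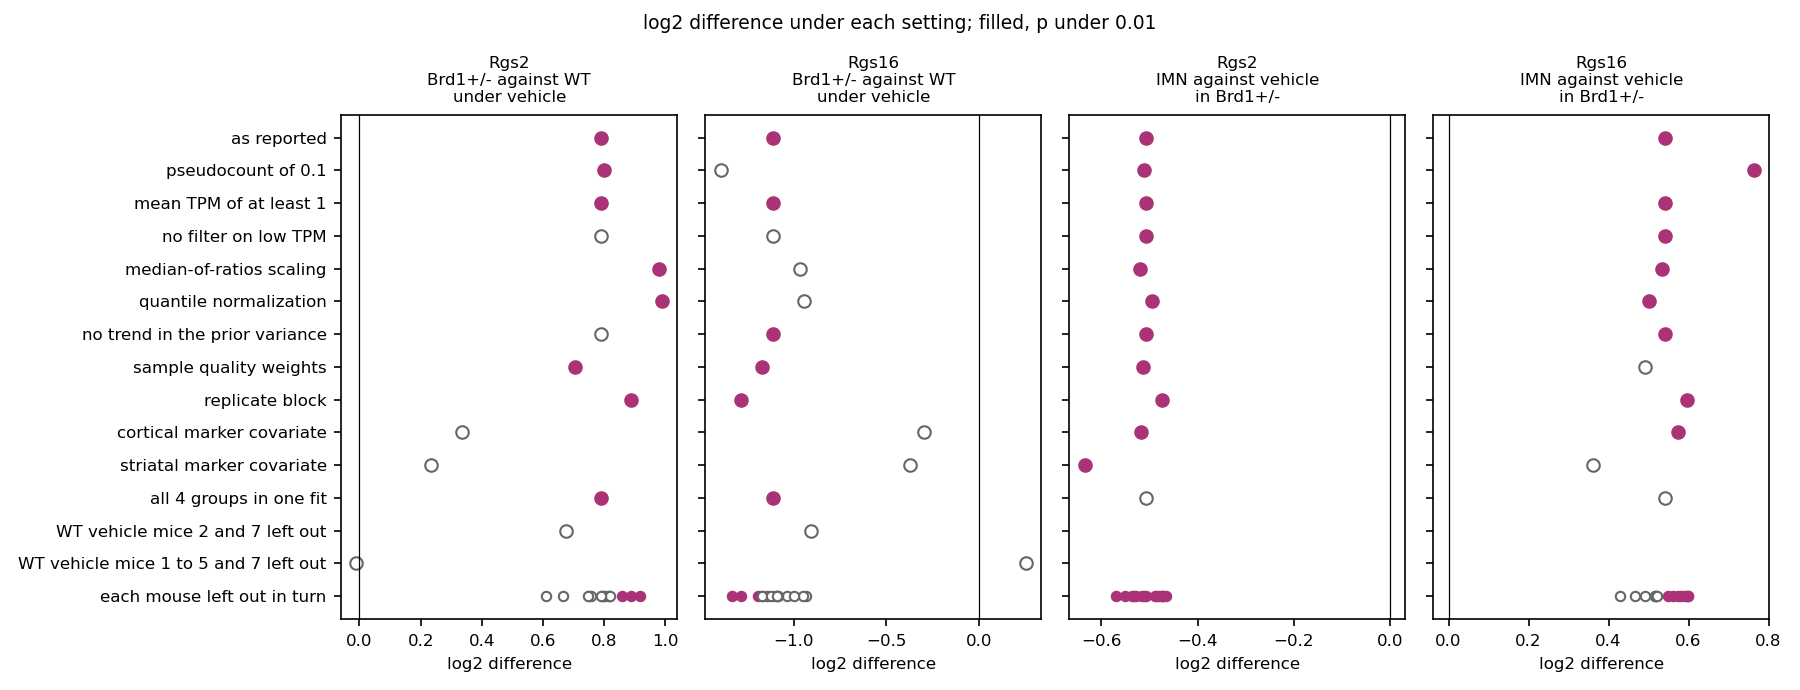
log2 difference (x axis) of *Rgs2* and *Rgs16* between genotypes under vehicle (left) and between IMN and vehicle in Brd1+/- mice (right) under each processing setting (rows), with 1 point for each mouse left out in the last row; filled points have p under 0.01 in limma. The vehicle values move to -0.0096 and 0.26 without WT vehicle mice 1 to 5 and 7. The comparison within Brd1+/- mice holds no WT vehicle mice, so that setting does not apply to it. Over the settings run there *Rgs2* ranges from -0.63 to -0.47 and loses its call with all 4 groups in one fit. *Rgs16* loses its call there in several settings.

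Each RGS gene was then set against the 2 marker scores over the 31 mice, centred on the group means, with p from permuting mice within groups and adjusted over the 20 relations. By Pearson's r, 11 of the 20 had an adjusted p under 0.05 over all mice and 10 without the WT vehicle mice, of which 6 were in both (*Rgs2*, *Rgs10* and *Rgs16* with the cortical and *Rgs8*, *Rgs9* and *Rgs16* with the striatal score). By rank the counts were 13 and 6, with 5 in both. *Rgs9* followed the striatal score most closely, with Pearson r = 0.993 (Spearman rho 0.939, permutation p = 1e-05 for both, the smallest that 100000 resamples can give), r = 0.971 without WT vehicle mice 1 and 2, the mice farthest from the median score, and r = 0.908 over the 23 mice of the other groups. Over these 23 it was 0.782 without the 2 mice then farthest, and within the Brd1+/- vehicle mice it was 0.342. *Rgs8* had r = 0.944 with the same score (rho 0.753, permutation p = 0.00011 and 0.00013), and r = 0.863 and 0.595 in those subsets. Over the 23 mice the value for *Rgs8* was 0.371 without the 2 mice then farthest, and r was 0.0415 within the Brd1+/- vehicle mice. Over the same 23 mice *Rgs2* and *Rgs10* had r = -0.596 and -0.512 with the cortical score, and -0.329 and -0.296 without the 2 farthest mice. *Rgs16* rose with the cortical score (r = 0.836, rho 0.824, permutation p = 1e-05 for both, r = 0.863 without those 2 mice) and fell with the striatal score (r = -0.762, rho -0.680, permutation p = 0.00059 and 0.00047). Its r with the cortical score was 0.889, 0.886, 0.828 and 0.705 within the WT vehicle, Brd1+/- vehicle, WT IMN and Brd1+/- IMN mice, the same sign in each.

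*Rgs2* was related to both scores over 31 mice, with r = 0.749 for the striatal and -0.670 for the cortical score (adjusted permutation p = 0.00729 and 0.00855, rho 0.537 and -0.600). Within groups the striatal relation differed in sign, at r = 0.861 in WT vehicle and 0.752 in WT IMN mice but -0.0416 in Brd1+/- vehicle and -0.592 in Brd1+/- IMN mice, and over the 23 mice outside the WT vehicle group r was 0.263 (adjusted permutation p = 0.469). The negative relation of *Rgs7* to the striatal score (r = -0.814, rho -0.346, adjusted permutation p = 0.0179 and 0.109) was -0.394 outside the WT vehicle group. The positive relation of *Rgs14* to the same score (r = 0.544, rho 0.340) was 0.0595 without WT vehicle mice 1 and 2, so it rested on those mice. *Rgs10* had r = -0.718 with the cortical score (rho -0.687, adjusted permutation p = 0.0014 and 0.00085) and *Rgs20* had r = 0.627 with the striatal score (rho 0.624, adjusted permutation p = 0.0030 and 0.00323). Outside the WT vehicle group that of *Rgs20* was 0.317 (rho 0.402, adjusted permutation p = 0.303 and 0.117). Over all 31 mice *Rgs4* and *Rgs17* had no relation with an adjusted permutation p under 0.05 by Pearson's r, although *Rgs4* did by rank with the striatal score (rho 0.621, adjusted permutation p = 0.00323) and the cortical score (rho -0.431, adjusted permutation p = 0.0405). Outside the WT vehicle group both were related to the striatal score, *Rgs4* with r = 0.622 (adjusted permutation p = 0.00147) and *Rgs17* with r = -0.375 (adjusted permutation p = 0.0347).

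**Figure D4:**
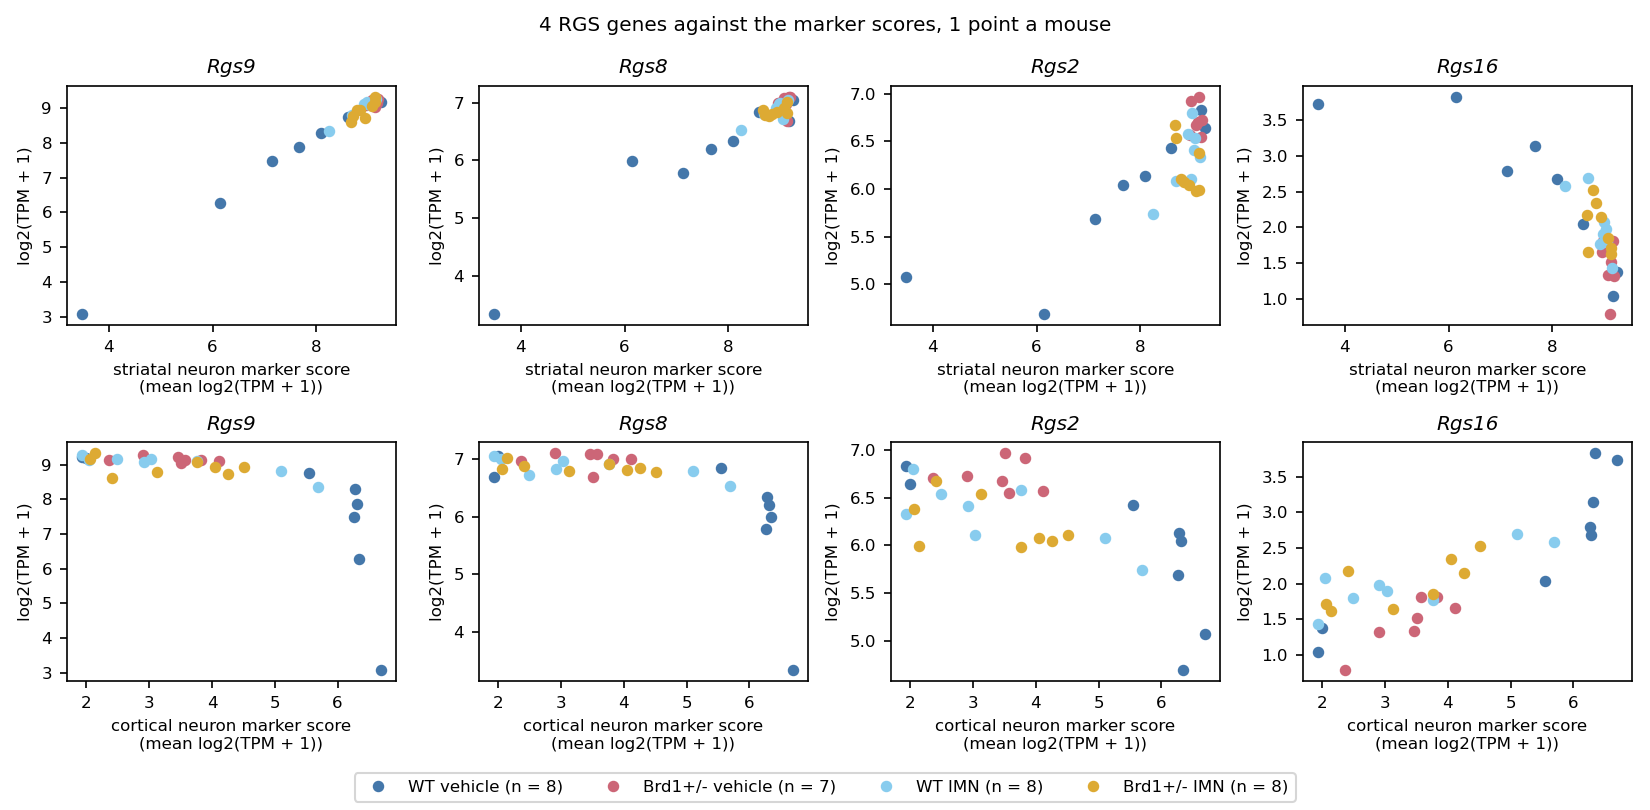
log2(TPM + 1) of 4 RGS genes against the striatal (top) and cortical (bottom) neuron marker score, each the mean log2(TPM + 1) of 10 genes, with 1 point for each of the 31 mice coloured by group. *Rgs9* rises along a line with the striatal score (r = 0.993, centred on group means), and the points with the lowest striatal scores are WT vehicle mice.

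As a description of the members among themselves, *Rgs8* and *Rgs9* varied together (r = 0.955 over 31 mice centred on the groups, 0.678 over the 23 mice outside WT vehicle), as did *Rgs10* and *Rgs14* (0.755 and 0.798). *Rgs2* and *Rgs16* varied in opposite directions (-0.763 and -0.316), and so did the neighbouring genes *Rgs8* and *Rgs16* (-0.613 and -0.408). *Rgs7* and *Rgs8* changed sign between the sets (-0.818 and 0.142). Genes measured in 1 mouse share its library and tissue content, so these values carry no test.

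The genes most like each member over all 31 mice were taken by Pearson r of log2(TPM + 1), not centred on the groups. They were sought among 17390 genes with a mean of at least 1 TPM. For *Rgs9* they were the adenosine receptor *Adora2a* (r = 0.995) and the dopamine receptors *Drd2* (0.994) and *Drd1* (0.992), all of which are in the striatal marker list, and for *Rgs8* *Drd1* (0.982), *Bcl11b* (0.982), a transcription factor of striatal projection neurons, and *Drd2* (0.970). Over the 23 mice outside the WT vehicle group these were 0.912, 0.846 and 0.782 for *Rgs9* and 0.804, 0.798 and 0.574 for *Rgs8*. Their ranks there were 2, 15 and 44 for *Rgs9* and 5, 6 and 211 for *Rgs8*. For *Rgs4* they were *AI593442* (0.942), *Lrtm2* (0.936) and *Coch* (0.897), and the first 2 had r = 0.928 and 0.922 over the 23 mice outside the WT vehicle group. For *Rgs2* they were *Cdc42ep3* (0.912), *Hbegf* (0.895) and *Arpp21* (0.893). For *Rgs16* they were *Bin1* (0.915), *Spns2* (0.913) and *Cacng7* (0.909). For *Rgs10* they were *Id4* (0.891), *1700037H04Rik* (0.878) and *Ap1s2* (0.877), for *Rgs14* *Zcchc12* (0.928), *Ehbp1l1* (0.918) and *Rtl9* (0.901), and for *Rgs20* *Lrp8os2* (0.841), *Clspn* (0.829) and *Klhl1* (0.827). *Rgs7* was most like *Slc17a6*, a vesicular glutamate transporter, at r = 0.937, but at 0.310 over the 23 mice. The median of *Slc17a6* over all mice was 0.165 TPM, so it reached a mean of 1 TPM only through mice with high values. Next came *Dnajc21* (0.925, and 0.448 over the 23 mice) and *Ndst3* (0.924 and 0.801). *Rgs17* had the weakest likeness, *Tmem147os* at r = 0.783, *Gm22759* at 0.773 and *Gm3222* at 0.740.

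Partners of the RGS proteins, other RGS genes, G alpha subunits and receptors of striatal neurons were taken as lists. Of the partners of *Rgs7* and *Rgs9*, *Gnb5*, *Rgs7bp* and the orphan receptor *Gpr158* could be tested (3 of 5 genes). All 3 were higher in Brd1+/- than in WT vehicle mice, by 0.61 for *Gnb5* (limma adjusted p = 0.0556), 0.55 for *Rgs7bp* (adjusted p = 0.0635) and 0.49 for *Gpr158* (adjusted p = 0.0622) on the log2 scale, where 1.47% of all genes were called as higher. None was called between genotypes under IMN (*Gnb5*, -0.013, had the smallest p). Without WT vehicle mice 1 to 5 and 7 the values were 0.34, 0.018 and 0.075 (limma adjusted p = 0.945, adjusted p = 0.991 and adjusted p = 0.955). *Gnb5*, with an unadjusted limma p of 0.00449, was the one still called, beside 0.892% of all genes. *Gnb5* was also called for the effect of IMN in WT mice (0.49, limma adjusted p = 0.141) and for the interaction (-0.63, adjusted p = 0.261), beside 6.95% and 3.74% of all genes. The values without WT vehicle mice 1 to 5 and 7 were 0.21 and -0.35 (unadjusted limma p of 0.168 and 0.0140), and neither was called. In Brd1+/- mice none of the 3 was called for IMN, the smallest unadjusted p being 0.0185 for *Gnb5* (-0.14).

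Of 12 other RGS genes, 8 were tested in each comparison of groups and 9 in the interaction. Under vehicle, 3 were lower in Brd1+/- mice, *Rgs19* of the Gz group (-0.65), *Rgsl1* (-1.08) and *Rgs6* (-1.10), each with a limma adjusted p = 0.0556, and 0 higher, beside 12.1% of all genes lower and 1.47% higher. Without WT vehicle mice 1 to 5 and 7 these were -0.31, -0.17 and 0.061 (unadjusted limma p of 0.0962, 0.411 and 0.851), and *Rgs12*, at -0.099 with all mice, was then called (0.50, unadjusted p of 0.00568), beside 0.892% of all genes. *Rgs19* was the 1 gene called for IMN in WT mice (-0.74, limma adjusted p = 0.141) and for the interaction (0.67, adjusted p = 0.261), beside 6.95% and 3.74% of all genes. At -0.40 and 0.33 without WT vehicle mice 1 to 5 and 7, it was called in neither (unadjusted limma p of 0.131 and 0.257). Under IMN and for IMN in Brd1+/- mice 0 were called, and the smallest unadjusted limma p was 0.271 for *Rgs11* (-0.15) and 0.109 for *Rgs3* (0.31).

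The list of 13 G alpha subunits is wider than the Gi/o, Gz and Gq classes named above for the members. Of the 13, 4 were lower and 0 higher in Brd1+/- vehicle mice. The 4 were the stimulatory *Gnas* (-1.29, limma adjusted p = 0.0556), *Gnaz* (-0.55, adjusted p = 0.0556), the inhibitory *Gnai1* (-0.89, adjusted p = 0.0556) and *Gna11* of the Gq class (-0.22, adjusted p = 0.0731). Of all genes, 12.1% were lower. *Gnas* and *Gnaz* were lower with IMN in WT mice (-0.94 and -0.40, each with a limma adjusted p = 0.141), and *Gnas* was called for the interaction (1.42, adjusted p = 0.261), beside 5.6% of all genes lower and 3.74% called in those comparisons. None was called between genotypes under IMN (smallest unadjusted p 0.0757, *Gnai3*, -0.16) or for IMN in Brd1+/- mice (0.0299, *Gnal*, -0.14). With median-of-ratios scaling, which moved the median difference of all genes from -0.13 to 0.0023, *Gna11* was at -0.03 (limma adjusted p = 0.772) and *Gnal*, the stimulatory subunit of striatal neurons, was called as higher (1.25, adjusted p = 0.104, against 1.06 and an unadjusted p of 0.0139 before). With this scaling 3 were lower and 1 higher, beside 9.21% of all genes called in either direction. With WT vehicle mice 1 to 5 and 7 left out, *Gnas* was at -0.33 (adjusted p = 0.945) and 0 of the 12 that could then be tested were called. Without those mice *Gnas* and *Gnaz* were at 0.020 and 0.13 for IMN in WT mice (unadjusted limma p of 0.963 and 0.343) and *Gnas* at 0.46 in the interaction (unadjusted p of 0.350).

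Among the called genes of the receptor list, the muscarinic receptor *Chrm4* was higher (0.78, limma adjusted p = 0.0648) and the serotonin receptor *Htr1a* lower (-1.32, adjusted p = 0.0556) in Brd1+/- vehicle mice, where 1.47% of all genes were higher and 12.1% lower. Without WT vehicle mice 1 to 5 and 7 they were -0.048 and 0.24 (unadjusted limma p of 0.632 and 0.0869). Among those called with IMN in WT mice, *Htr1a* was lower (-1.15), and the mu opioid receptor *Oprm1* (1.11) and *Grm5* (0.69) were higher (limma adjusted p = 0.141 for each), where 1.35% of all genes were higher and 5.6% lower. Without WT vehicle mice 1 to 5 and 7 these were 0.42, 0.94 and 0.14 (unadjusted limma p of 0.303, 0.0107 and 0.434), and the cannabinoid receptor *Cnr1* (-1.09) and the serotonin receptor *Htr2a* (1.04) were then called (unadjusted p of 0.000383 and 0.00639), beside 1.86% of all genes. With all mice these had been at 0.19 and 0.18 (unadjusted p of 0.582 and 0.673). With IMN in Brd1+/- mice 0 were higher and 2 lower, the muscarinic receptor *Chrm1* (-0.38 ± 0.11, limma adjusted p = 0.455), which couples to Gq, and *Drd1* (-0.19 ± 0.06, adjusted p = 0.516), beside 0.869% of all genes higher and 0.964% lower. With the striatal score as a covariate neither was called, and *Drd1* is itself in that score. Among the genes called by the interaction, which were 3.74% of all genes, were *Htr1a* (1.23) and *Chrm4* (-0.80), each with a limma adjusted p = 0.261, and without WT vehicle mice 1 to 5 and 7 they were at -0.33 and 0.024 (unadjusted limma p of 0.358 and 0.912). The genotype comparison under IMN called 0, beside 0.703% of all genes, the smallest unadjusted p being 0.0640 for *Chrm1* (-0.25).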

How the data were processed

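Right CPu punches of 31 female mice were sequenced single-end (BGISEQ-500), 1 library each. Per the submitters' processing notes and methods, reads were trimmed with Trimmomatic, aligned to GRCm38 with HISAT2 2.1.0 and quantified with StringTie 1.3.4. The authors deposited TPM for 52636 Ensembl genes, which sum to between 999787 and 999918 in each mouse. The methods give a minimum of reads over all samples, and the depth of each single library is unknown. Errors and tests therefore reflect how mice of a group differ, not how many reads were counted. Positions came from GENCODE M21, which named 52489 of the genes. log2(TPM + 1) was fitted with limma 3.58.1 (R 4.3.3, two-sided, moderated variance with a trend), keeping genes that at least 7 mice held above 0.1 TPM, each pair of groups on its own and the interaction over all mice. A call is p under 0.01, with Benjamini-Hochberg adjustment over all genes beside it; edgeR, which the authors used on counts, was not run on TPM. The scripts were tested on simulated data before use. Exact permutation tests and permutations used scipy 1.17.1. The 10 members are always named; from each other list up to 4 called genes with the smallest p are named, or the smallest p where none was called, and for likeness the 3 genes with the highest r. The members and lists were chosen with earlier results of these data known. Lists of interneuron, astrocyte, oligodendrocyte, microglia, endothelial, choroid plexus and erythrocyte markers were summed as well. Alternatives were a pseudocount of 0.1, other filters and scalings, no trend, sample weights, a block of mouse number, marker covariates, all groups in one fit and mice left out. Nothing in the labels says that a mouse number marks a litter shared between groups. For the receptor list, 1 gene is not reported here, so counts are not given for every comparison.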

Additional observations from a re-analysis of the deposited data

Results flagged for a closer look

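In groups of 7 or 8 mice, 5 of the 40 tests for a value far from its group found one, where chance gives about 1 in 20. *Rgs8* in WT vehicle mouse 2 was at 9.10 TPM, the next lowest mouse being at 54.0 TPM, and this mouse also had the lowest striatal score. *Rgs8* in Brd1+/- vehicle mouse 6 was at 102 TPM (next 124 TPM). *Rgs17* was at 3.51 TPM in WT vehicle mouse 8 (next 20.1 TPM) and at 6.63 TPM in Brd1+/- vehicle mouse 7 (next 19.7 TPM). *Rgs20* was at 38.3 TPM in Brd1+/- IMN mouse 3 (next 72.9 TPM), the same mouse that had the highest *Rgs2* and the lowest *Rgs4* of its group, at 101 and 163 TPM. Its striatal score of 8.67 was also the lowest of its group. The interaction term for IMN and genotype was called for *Rgs2*, at -0.89 on the log2 scale (limma adjusted p = 0.261), but not with either marker covariate, not in 14 of 31 fits with 1 mouse left out, and not without WT vehicle mice 1 to 5 and 7 (-0.089, unadjusted p of 0.711).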

How the results depend on the processing

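TPM holds no depth, so no result could be weighted by it. Under vehicle, 2 RGS genes were called, against 1 with a pseudocount of 0.1, 0 without a filter, 1 without a trend, 7 with sample weights, 4 with a replicate block, 0 with the cortical and 0 with the striatal covariate, 6 with all 4 groups in one fit, 1 without WT vehicle mice 2 and 7, and 0 without WT vehicle mice 1 to 5 and 7 (both sets chosen after seeing the data). The share of all genes called moved as well, from 13.6% to 12.9%, 9.6%, 13.4%, 26.5%, 17.7%, 2.05%, 1.38%, 19.7%, 5.83% and 0.892% in that order. An exact permutation test called 2 other genes there, beside 11% of all genes. For IMN in WT mice the 0 became 2 with weights, 1 with the block, 3 with all groups, 1 by exact permutation test and 2 without mice 1 to 5 and 7, where 20.3% of all genes were called with weights, 5.08% with the block, 13.5% with all groups and 1.86% without those mice, against 6.95%. For IMN in Brd1+/- mice the 2 became 3 with the block (*Rgs2*, *Rgs4* and *Rgs16*, beside 2.15% of all genes), 1 with weights (2.07%), 1 with the striatal covariate (1.48%) and 0 with all groups (1.17%, against 1.83%), and for the interaction the 1 became 2 with quantile normalization, 6 with weights, 0 with either covariate and 0 without mice 1 to 5 and 7, beside 3.39%, 13.6%, 1%, 0.512% and 0.623% of all genes against 3.74%. Leaving out each mouse in turn gave 0 to 5 calls under vehicle, 0 to 2 for IMN in WT, 1 to 3 for IMN in Brd1+/- mice and 0 to 4 for the interaction. The genotype comparison under IMN stayed at 0 in every setting run, and 11 of the 20 relations to the scores by Pearson's r compare with 13 by rank, and with 10 by Pearson's r and 6 by rank without the WT vehicle mice, not all of them the same relations.

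Among the genes with an unadjusted p under 0.05 in a comparison, the sign turned with the striatal covariate for *Rgs9* under vehicle (-0.12), *Rgs8* and *Rgs9* for IMN in WT (-0.015 and -0.039) and *Rgs9* in the interaction (0.025). Without WT vehicle mice 1 to 5 and 7, and among all 10 genes, it turned under vehicle for *Rgs2* (-0.0096), *Rgs4* (-0.16), *Rgs9* (-0.059), *Rgs10* (-0.35), *Rgs14* (-0.12), *Rgs16* (0.26) and *Rgs17* (1.06), for IMN in WT for *Rgs2* (-0.42), *Rgs4* (-0.68), *Rgs7* (0.026), *Rgs8* (-0.018), *Rgs9* (-0.20), *Rgs10* (-0.31), *Rgs16* (0.82) and *Rgs20* (-0.069), and in the interaction for *Rgs4* (0.14), *Rgs7* (-0.016), *Rgs10* (0.16) and *Rgs16* (-0.28). The cause was not tested. Correlations between the deviations of mice of 1 number ran from -0.14 to 0.062 under vehicle and from -0.19 to 0.19 between genotypes under IMN. They ran from -0.39 to 0.41 for IMN in WT and from -0.069 to 0.21 for IMN in Brd1+/- mice. In that order, 0, 2, 1 and 2 mice were most like their own number. Whether a number marks a litter or a batch cannot be told from these values. With mouse number as a block, *Rgs2* was at 0.89 under vehicle and at -0.47 for IMN in Brd1+/- mice.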

Other observations

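Of the marker lists of other cell types, the interneuron score ran from 4.73 to 5.80, the astrocyte score from 5.73 to 6.99, the oligodendrocyte score from 6.40 to 9.36, the microglia score from 3.95 to 4.73 and the endothelial and mural score from 2.89 to 3.40 over the 31 mice. The choroid plexus and ependyma score ran from 0.53 to 1.69 and the erythrocyte score from 4.30 to 6.05, with *Folr1* at 0 in every mouse of the Brd1+/- vehicle and both IMN groups.

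The spread of *Rgs9* between mice differed in size between groups, with a coefficient of variation of 73.0% in WT vehicle, 5.22% in Brd1+/- vehicle, 17.7% in WT IMN and 16.8% in Brd1+/- IMN mice. That of *Rgs2* was 45.9%, 11.6%, 22.6% and 19.96%, and that of *Rgs7* was 30.8%, 6.56%, 5.41% and 7.84%. These spreads were not compared by a test.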
